A study of Mus musculus with 18 samples.

Results

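The early B lymphoid genes are 10 genes that mark the first steps from a lymphoid progenitor to a pre-B cell: Il7r, Ebf1, Pax5, Dntt, Rag1, Rag2, Igll1, Vpreb1, Cd79a and Cd79b. They were chosen by name, and each matched 1 row of the deposited table of 44349 mouse genes. RNA-seq was done on long-term haematopoietic stem cells (LT-HSC) of mouse bone marrow, taken by the series' gate as lineage-negative, Sca-1+, c-Kit+, CD34-, Flk2- and low for CD49b. The 18 libraries form 6 groups of 3. WT is wild type. The titles of Wnt5a name that secreted Wnt ligand only, but its value columns hold derarewt, so this group was taken as wild type. KO Ctrl is the DERARE knockout control, and KO Wnt5a is described as a Wnt5a rescue of the knockout. WT Reserve and KO Reserve are wild type and knockout libraries that carry the word reserve. The names of their value columns hold derarefl, where those of the other groups hold derarewt or derareko. The labels do not explain derarefl, so what it marks cannot be told apart from reserve. DERARE is a retinoic acid response element of the Hoxb cluster, so its loss cannot be checked on a transcript of its own. The genotype tag of KO Ctrl also holds the words for wild type control, and that of KO Reserve those for wild type, so groups follow the titles. The labels state neither the age of the mice, nor how Wnt5a was given, nor how reserve cells were chosen, nor whether animals were pooled. Nothing says that replicates came from separate mice, so p-values measure only the spread between these libraries.

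As background, B cell development starts when a lymphoid progenitor senses interleukin 7 through a receptor that contains the Il7r chain. The transcription factor Ebf1 then opens the B cell programme and Pax5 commits the cell to it. Rag1 and Rag2 together cut antigen receptor genes for V(D)J recombination, and Dntt (terminal deoxynucleotidyl transferase) adds untemplated bases at the joins. Igll1 (lambda 5) and Vpreb1 form the surrogate light chain, which pairs with the new heavy chain in the pre-B cell receptor, and Cd79a and Cd79b carry that receptor's signal. Textbook LT-HSC are upstream of this programme.

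The promoters of 3 members are printed because their genes take up different places in the results. Igll1 had the largest difference between KO Ctrl and WT, Cd79a was called in the same comparison, and Rag1 was near the detection limit outside the reserve libraries. Each is the stretch upstream of the annotated gene from the RefSeq table for GRCm38.p6, 5′ to 3′ on the strand of the gene, with the E-boxes CAGGTG and CAGCTG in capitals in whichever orientation they lie. E-boxes are bound by E2A, a partner of Ebf1.
Igll1, chr16:16863986-16864235, minus strand: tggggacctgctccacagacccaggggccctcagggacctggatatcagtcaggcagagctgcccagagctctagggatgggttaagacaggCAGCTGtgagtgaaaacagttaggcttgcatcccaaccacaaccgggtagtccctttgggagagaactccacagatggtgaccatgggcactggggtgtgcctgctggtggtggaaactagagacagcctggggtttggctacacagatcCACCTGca
Cd79a, chr7:24897247-24897380, plus strand: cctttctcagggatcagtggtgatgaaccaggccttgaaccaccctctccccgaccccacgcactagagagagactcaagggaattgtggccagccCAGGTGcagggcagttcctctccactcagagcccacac
Rag1, chr2:101649533-101649782, minus strand: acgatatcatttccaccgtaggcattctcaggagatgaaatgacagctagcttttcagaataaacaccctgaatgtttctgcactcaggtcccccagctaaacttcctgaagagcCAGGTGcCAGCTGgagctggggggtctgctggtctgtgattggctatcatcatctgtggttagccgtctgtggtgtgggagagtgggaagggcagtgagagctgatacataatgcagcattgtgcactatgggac
The 250 bases upstream of each RefSeq start were searched on both strands. CAGGTG was present in Rag1, Cd79a, Igll1 and Vpreb1, which is 4 of the 9 members with an entry, and in 17.3% of 32536 promoters. Some windows hold exons of the gene in GENCODE M21: 250 bases in an Ebf1 window, 190 in Vpreb1, 116 in Cd79a and 86 in Il7r. In Vpreb1 only the first 43 bases precede its exons, and its matches lie after them. CAGCTG was present in Rag1 and Igll1 and in 13.1% of all promoters. The other letters searched were GAGGAA, the core bound by PU.1 (4 members and 23.4% of promoters), TGGGAA, an Ikaros core (2 members and 21.6%), and AGGTCA, a motif of retinoic acid receptors (Rag2 and Vpreb1, and 14.0%). The palindromic Ebf1 motif was in none of the 9 windows and in 0.787% of promoters, and TATAAA was in none of them and in 12.3%. None of these letters overlap each other in the stretches printed, and a match is a description of the sequence only.

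Levels are in FPKM, which divides a gene's fragments by its transcript length and by the sequencing depth, so levels can be set side by side between genes. The step between low values implies 20400000 to 40800000 fragments per library, and 1 fragment on a transcript of 1000 bases is worth 0.0245 to 0.049 FPKM. The 6 reserve libraries stand apart from the other 12: 5 granulocyte genes together held 0.467 to 10.5 FPKM in the 12, 4002 to 10067 FPKM in WT Reserve and 2205 to 3284 FPKM in KO Reserve. The 8 LT-HSC marker genes were measured in every group, at 98.1 to 103.5 FPKM in WT, 102.7 to 117.5 in KO Ctrl, 125.2 to 158.8 in WT Reserve and 69.5 to 83.6 in KO Reserve. Of the genes of the gate, Cd34 was 340.9 to 370.3 FPKM in WT although CD34 protein is selected against, Flt3 (Flk2) was 0.346 to 0.790 and Itga2 (CD49b) 0.205 to 0.397. Flt3 was 12.4 to 18.7 FPKM in WT Reserve and 3.83 to 3.99 in KO Reserve, although the gate is stated as Flk2-. All results on the 12 libraries are therefore given from a fit of all 18 and, where it differs, from a fit of the 12. In bulk RNA, fewer cells of a type and less RNA per cell cannot be told apart.

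Il7r, the ligand-binding chain of the interleukin 7 receptor, lies on chromosome 15 (9505788 to 9530176, minus strand, mm10). Its FPKM were 0.765, 0.499 and 1.096 in WT, 1.391, 2.040 and 1.980 in Wnt5a, 3.379, 2.356 and 2.445 in KO Ctrl, and 7.440, 4.252 and 3.096 in KO Wnt5a. Group means were highest in KO Wnt5a and lowest in WT, running from 0.787 ± 0.299 to 4.93 ± 2.25 (SD, n = 3), and only the neighbours KO Ctrl and KO Wnt5a overlapped. In the reserve libraries it was 28.3, 23.3 and 20.9 in WT Reserve and 24.2, 19.4 and 17.2 in KO Reserve, which overlapped each other and lay above the other 12.

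Ebf1 (chromosome 11, 44617317 to 45008091, plus strand) was low in WT, at 0.359, 0.257 and 0.182 FPKM. In Wnt5a it was 0.548, 0.565 and 0.231, in KO Wnt5a 0.594, 1.253 and 0.805, and in KO Ctrl 1.447, 1.749 and 2.490 FPKM. WT and Wnt5a overlapped, whereas KO Wnt5a lay wholly above Wnt5a and KO Ctrl wholly above KO Wnt5a. Reserve values were 26.6, 17.8 and 31.0 in WT Reserve and 32.3, 29.3 and 27.1 in KO Reserve, with overlap. An antisense transcript, Gm12158, lies inside Ebf1 with 0 shared exonic bases and measured 0.605 to 2.733 FPKM in the 12 libraries, and the libraries keep no strand.

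Pax5, the factor that commits cells to the B lineage (chromosome 4, 44524757 to 44710487, minus strand), did not follow Ebf1. It ranged from 0.016 to 1.182 FPKM over the 12 libraries and every one of their 4 groups overlapped the others. In WT it was 0.585, 1.079 and 0.036, and in KO Ctrl 0.260, 0.075 and 1.182, so in both groups the spread covered most of the range over the 12 libraries. WT Reserve held 2.612, 2.243 and 2.845 FPKM and KO Reserve 2.474, 3.424 and 2.747, above Rag1 and far below Ebf1. Its exons share 636 bases with the opposite-strand model 5730488B01Rik and 125 with Gm12462.

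Dntt, the template-independent polymerase (chromosome 19, 41029275 to 41059525, plus strand), was low in the 12 libraries and abundant in reserve. It measured 1.336, 0.454 and 0.173 FPKM in WT, 0.267, 0.241 and 0.112 in Wnt5a, 0.421, 0.327 and 1.475 in KO Wnt5a and 1.055, 1.772 and 1.287 in KO Ctrl. WT, KO Wnt5a and KO Ctrl overlapped, and Wnt5a lay below KO Ctrl and KO Wnt5a. WT Reserve reached 243.4, 217.6 and 277.9 FPKM and KO Reserve 176.4, 137.9 and 133.1, without overlap.

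Rag1, the catalytic subunit of the recombinase (chromosome 2, 101638282 to 101649501, minus strand), was listed at 0 in 11 of the 12 libraries outside reserve. The other, in KO Ctrl, held 0.006 FPKM, which is about 1 fragment. WT Reserve held 1.139, 1.493 and 1.363 FPKM and KO Reserve 1.997, 2.106 and 1.934, so every KO Reserve library was above every WT Reserve library. Rag2, its cofactor, lies 5752 bases away on the other strand (101624718 to 101632529) and was at or below 0.217 FPKM in the 12 libraries, with 4 of them at 0. Rag2 was 13.7, 18.4 and 15.4 FPKM in WT Reserve and 20.8, 11.8 and 6.68 in KO Reserve, where the lowest and the highest of the 6 values both lie. B230118H07Rik, whose exons share 80 bases with Rag1 and 208 with Rag2, measured 91.5 to 152.1 FPKM in the 18 libraries.

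Igll1, the lambda 5 part of the surrogate light chain (chromosome 16, 16860671 to 16863985, minus strand), was measured at over 8 FPKM in every library. It was 10.6, 11.2 and 8.28 FPKM in WT, 10.6, 23.7 and 11.8 in Wnt5a, 20.5, 17.7 and 23.2 in KO Wnt5a, and 30.1, 33.9 and 24.7 in KO Ctrl. WT and Wnt5a overlapped, as did Wnt5a and KO Wnt5a through the single Wnt5a library at 23.7, and KO Ctrl lay above all 9 others. In WT Reserve Igll1 reached 1121, 1335 and 1062 FPKM, the highest values of any member, and in KO Reserve 1009.6, 841.2 and 829.0 FPKM.

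Vpreb1, the other part of the surrogate light chain, lies 4417 bases from Igll1 (chromosome 16, 16868403 to 16870843, minus strand). It was 5.71, 2.25 and 4.49 FPKM in WT, 4.07, 6.46 and 3.51 in Wnt5a, 4.65, 8.48 and 6.68 in KO Wnt5a and 7.605, 7.57 and 10.2 in KO Ctrl. All neighbouring groups in this order overlapped, although KO Ctrl lay above WT. WT Reserve held 379.1, 417.1 and 374.5 FPKM and KO Reserve 399.7, 355.3 and 354.4, with overlap. Its longest transcript is 97.5% identical to that of Vpreb2 over 686 aligned bases, so fragments may have been divided between them, and it shares 108 exonic bases with Top3b on the opposite strand, at 30.2 to 66.5 FPKM.

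Cd79a, the immunoglobulin alpha signalling chain (chromosome 7, 24897381 to 24902197, plus strand), gave 4.55, 3.355 and 3.04 FPKM in WT and 4.48, 9.02 and 3.68 in Wnt5a. KO Wnt5a gave 6.47, 6.77 and 6.31 and KO Ctrl 7.62, 9.56 and 10.5 FPKM. The single Wnt5a library at 9.02 is the one in which Igll1 was 23.7 FPKM. Reserve values were 324.0, 383.6 and 341.7 in WT Reserve and 269.9, 220.0 and 194.0 in KO Reserve, without overlap.

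Cd79b, the immunoglobulin beta chain (chromosome 11, 106311341 to 106314762, minus strand), varied least outside reserve relative to its level, from 11.3 to 19.8 FPKM. It measured 12.5, 12.5 and 11.3 FPKM in WT, 15.0, 17.2 and 14.2 in KO Wnt5a, 15.9, 18.4 and 14.2 in Wnt5a and 14.4, 15.3 and 19.8 in KO Ctrl. WT lay below the other groups, which overlapped each other. WT Reserve held 200.9, 208.3 and 194.8 FPKM and KO Reserve 149.2, 123.7 and 125.05, without overlap.

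**Figure D1:**
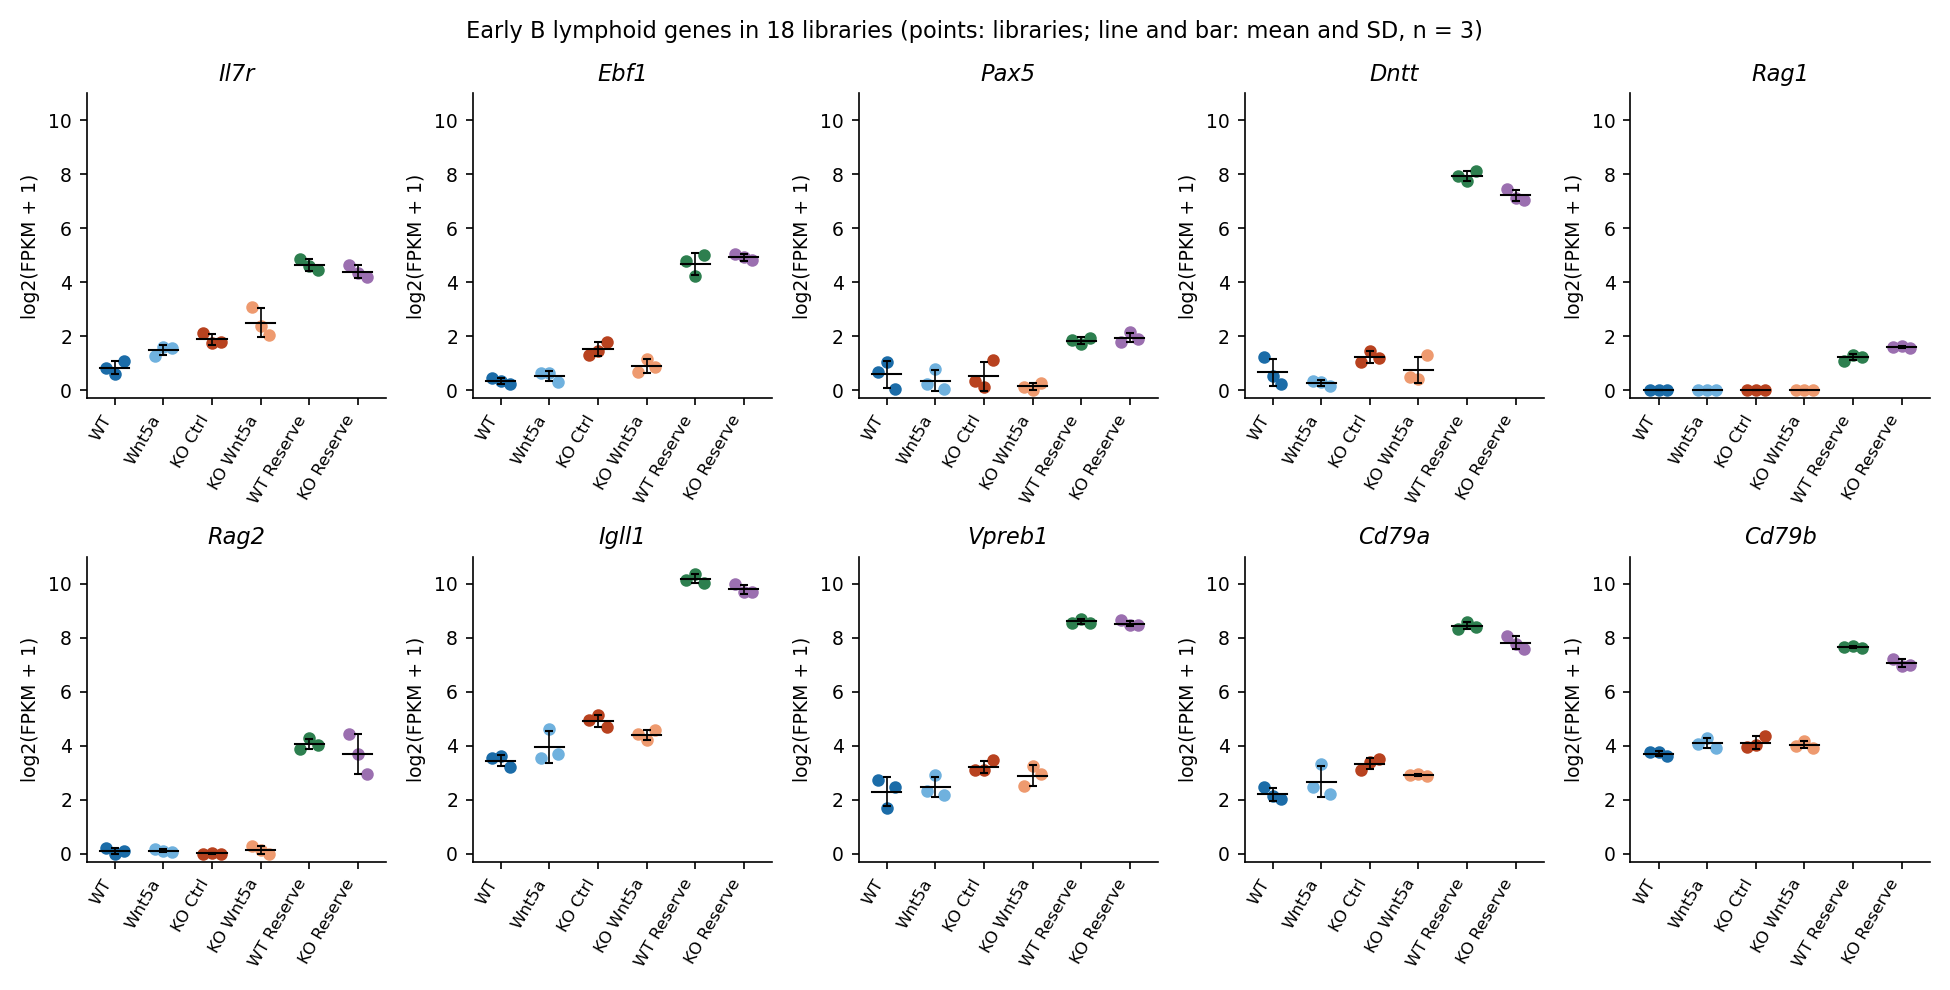
Level of each of the 10 early B lymphoid genes as log2(FPKM + 1), with 3 points per group for the libraries, a line for the mean and a bar for the SD. The 12 libraries outside reserve sit at or below 33.9 FPKM for all members, and Igll1 in WT Reserve reaches 1335 FPKM.

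Comparing KO Ctrl with WT asks what loss of the element does in LT-HSC. Of the 10 members, Igll1, Ebf1, Cd79a and Il7r were called higher at an adjusted p below 0.05 and none lower, where 1.53% of the 14285 genes tested were called higher. Igll1 was 1.47 ± 0.22 higher (log2 of FPKM + 1, ± SE, adjusted p = 0.0017), and Ebf1 1.18 ± 0.20 (adjusted p = 0.0040). Cd79a was 1.14 ± 0.22 higher (adjusted p = 0.0090) and Il7r 1.06 ± 0.23 higher (adjusted p = 0.0186). Because 1 FPKM was added, these differences understate the fold of low genes: with 0.1 FPKM added, Ebf1 differed by 2.44 (adjusted p = 0.000586) and Il7r by 1.71 (adjusted p = 0.00486). Vpreb1 (0.93 ± 0.24, adjusted p = 0.051), Cd79b (0.40 ± 0.13, adjusted p = 0.096) and Dntt (0.57 ± 0.25, adjusted p = 0.235) did not pass. Groups did not overlap, with KO Ctrl higher, for 6 members, against 15.9% of all genes. The same 4 genes were called in a fit of the 12 libraries. Leaving out WT replicate 1, WT replicate 2 or KO Ctrl replicate 1 ended the call of Il7r (adjusted p = 0.0624, 0.0787 and 0.0554), and leaving out WT replicate 3 ended that of Cd79a (adjusted p = 0.062). With no filter on low values Il7r was not called (adjusted p = 0.0556), and Vpreb1 was called without WT replicate 1 (adjusted p = 0.0316). Rag1, Rag2 and Pax5 passed the filter on low values only through the reserve libraries, and gave no call here.

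Markers of other cell types that moved between the same libraries are given beside these counts. The 6 mature B genes together held 1.68 to 3.23 FPKM in WT and 3.31 to 6.83 in KO Ctrl. Of the 4 tested 0 were called, with 1 at an unadjusted p below 0.05, as were 2517 of all 14285 genes tested. The 5 granulocyte genes held 0.467 to 3.04 FPKM in WT and 6.23 to 10.5 in KO Ctrl, and S100a9 was called higher. Other lists were lower: the 5 NK genes held 57.0 to 59.3 FPKM in WT and 20.2 to 31.5 in KO Ctrl, where Nkg7 fell by 1.27 (adjusted p = 0.00022). The 4 erythroid genes held 35.7 to 42.7 FPKM in WT and 23.7 to 31.1 in KO Ctrl, with 0 called and 0 at an unadjusted p below 0.05. Of the gate's genes, Ly6a, which encodes Sca-1, was 1.01 ± 0.20 higher (adjusted p = 0.0119) and Kit 0.86 ± 0.18 higher (adjusted p = 0.017). Their part in the result was not tested.

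**Figure D2:**
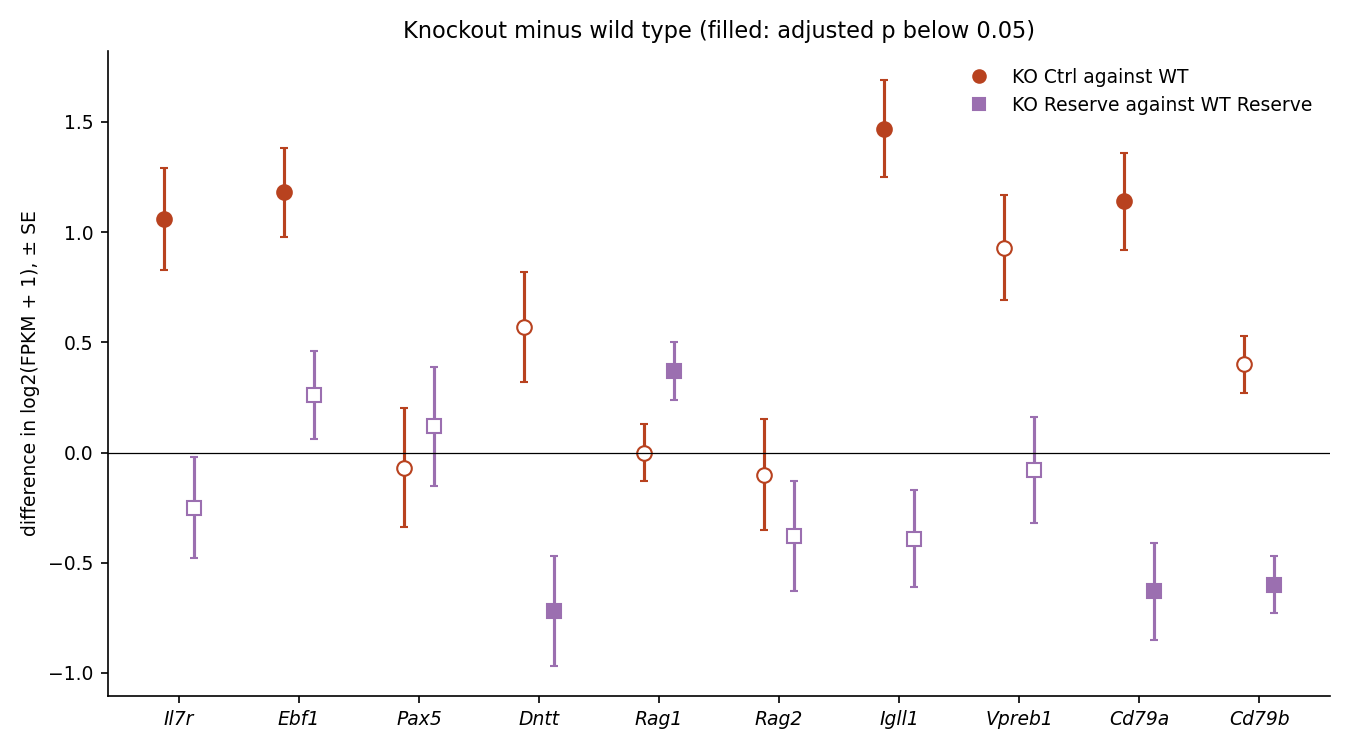
Knockout minus wild type on the log2(FPKM + 1) scale, ± SE, for each member, as circles for KO Ctrl against WT and squares for KO Reserve against WT Reserve, filled where the adjusted p is below 0.05. Igll1, Ebf1, Cd79a and Il7r have filled circles between 1.06 and 1.47, and Dntt, Cd79a and Cd79b have filled squares below 0.

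Genes of the pathway outside the 10 were read from lists. In KO Ctrl against WT, pre-B and B cell receptor signalling had 4 of 18 genes higher and 0 lower: Vpreb3, a surrogate light chain relative, by 0.91 (adjusted p = 0.0297), Ighm, the heavy chain constant region, by 1.30 (adjusted p = 0.0396), Cd72, an inhibitory coreceptor, by 1.33 (adjusted p = 0.0407), and Ptprc, the CD45 phosphatase, by 0.44 (adjusted p = 0.0312). The median of this list was 0.27, against 0.04 for all genes tested, of which 1.53% were called higher. Lymphoid transcription factors had 1 of 20 higher, Myb, by 0.73 (adjusted p = 0.00421), with a list median of 0.31. Among 14 surface genes of early lymphoid cells, Cd24a (0.95, adjusted p = 0.000816), Cd27 (0.92, adjusted p = 0.00637) and Ccr7 (0.88, adjusted p = 0.00943) rose, and among the lower genes Cd37 fell by 0.66 (adjusted p = 0.0204). Interleukin 7 and Flt3 receptor signalling gave 0 of 14 calls and 4 genes at an unadjusted p below 0.05, and V(D)J recombination and end joining likewise 0 of 14 and 4. An unadjusted p below 0.05 was found for 2517 of all 14285 genes tested. Flt3, the receptor of multipotent progenitors that the gate excludes, differed by 0.65 ± 0.21 and did not pass (adjusted p = 0.108).

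Wnt5a against WT and KO Wnt5a against KO Ctrl ask what Wnt5a does in each genotype. None of the 10 members was called by limma in Wnt5a against WT, where 0.049% of genes were called in either direction. An unadjusted p below 0.05 was found for 4 members and for 1126 of all 14285 genes tested. Il7r differed by 0.66, Igll1 by 0.49, Cd79a by 0.47 and Cd79b by 0.38, with an adjusted p of 0.503 for Il7r, 0.486 for Cd79b and 0.627 for Cd79a. Ebf1 (0.19 ± 0.20), Vpreb1 (0.17 ± 0.24) and Dntt (-0.40 ± 0.25) did not pass either. For Il7r and Cd79b the groups did not overlap, with Wnt5a higher, which held for 11.7% of all genes.

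In KO Wnt5a against KO Ctrl none was called either, against 1.02% of genes. Of the members 3 had an unadjusted p below 0.05, as had 1525 of all 14285 genes tested. Ebf1 differed by -0.62 ± 0.20 (adjusted p = 0.193), Igll1 by -0.51 ± 0.22 (adjusted p = 0.411) and Cd79a by -0.43 ± 0.22 (adjusted p = 0.507), and for these 3 every KO Wnt5a library was below every KO Ctrl library, as for 6.76% of all genes. Those with an unadjusted p below 0.05 were Ebf1, Igll1 and Il7r, and Il7r had the opposite sign, at 0.61 ± 0.23 (adjusted p = 0.293). Dntt (-0.49 ± 0.25), Vpreb1 (-0.34 ± 0.24) and Cd79b (-0.08 ± 0.13) did not pass. The test of whether the Wnt5a difference depends on genotype gave 0 calls, where 0.07% of genes were called. In it 4 members had an unadjusted p below 0.05, as had 863 of all 14285 genes tested. Igll1 had the value -1.0 ± 0.31 (adjusted p = 0.510), Cd79a -0.90, Ebf1 -0.81 and Cd79b -0.46. Elsewhere in the lists Socs3, a feedback inhibitor of cytokine receptors, fell by 1.23 in KO Wnt5a against KO Ctrl (adjusted p = 0.00384).

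KO Wnt5a was also set against Wnt5a and against WT, groups that the comparisons above also use. Il7r alone among the 10 was called against Wnt5a, at 1.02 ± 0.23 (adjusted p = 0.0205), where 1.41% of genes were called higher, and 3 members did not overlap, with KO Wnt5a higher, against 17.6% of genes. That call ended without Wnt5a replicate 1 or 3 or KO Wnt5a replicate 1 or 2, and without the Wnt5a library of high Igll1 and Cd79a, replicate 2, Igll1 was called too (0.81, adjusted p = 0.0109). Against WT, 3 members were called higher, where 6.8% of all genes were: Il7r by 1.68 ± 0.23 (adjusted p = 0.000219), Igll1 by 0.96 ± 0.22 (adjusted p = 0.0103) and Cd79a by 0.71 ± 0.22 (adjusted p = 0.0448). Ebf1 was at 0.56 ± 0.20 (adjusted p = 0.0744). Cd79a was not called in the fit of the 12 libraries (adjusted p = 0.0628), nor with quantile normalization (0.095), median-ratio scaling (0.0692), no filter (0.118) or limma without trend and robust moderation (0.0592). Without WT replicate 3 only Il7r was called (Igll1, adjusted p = 0.0627). The call of Cd79a also ended without WT replicate 2 and without each KO Wnt5a replicate, with adjusted p from 0.0895 to 0.116, while with 0.1 FPKM added Ebf1 was called (1.40, adjusted p = 0.0114). The groups did not overlap, with KO Wnt5a higher, for 5 members, against 25.1% of genes.

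Among the other lists, KO Wnt5a against WT gave 6 of 18 receptor signalling genes higher, with a list median of 0.42 against 0.09 for all genes, including Ighm (1.44, adjusted p = 0.00878), Cd72 (1.36, adjusted p = 0.0138) and Blnk, the adaptor downstream of Cd79a (0.80, adjusted p = 0.0263). Lymphoid transcription factors had 5 of 20 higher and 1 lower, among them Myb (0.87, adjusted p = 0.000318), Bcl11a (0.74, adjusted p = 0.00569), Ikzf1, which encodes Ikaros (0.64, adjusted p = 0.00994), and Id3, an inhibitor of E proteins (0.92, adjusted p = 0.0145). Interleukin 7 and Flt3 receptor signalling had 3 of 14 higher, Stat5a (0.56, adjusted p = 0.0119), Cish (0.47, adjusted p = 0.0388) and Bcl2 (0.57, adjusted p = 0.0458), and 1 lower, Socs3, which fell by 1.30 (adjusted p = 0.000593). V(D)J recombination and end joining had 2 of 14 higher, where 6.8% of all genes tested were called higher. Beside these, both tested T cell genes were called higher, Cd3g (1.52, adjusted p = 0.0442) and Lck (0.71, adjusted p = 0.0265), as were Ly6a (0.97), Kit (0.85) and the LT-HSC genes Hlf (0.84) and Mecom (1.16). Another LT-HSC gene, Slamf1, was called lower (-0.72, adjusted p = 0.0223), so of the 7 tested in that list 2 were higher and 1 lower. T cell genes summed to 13.8 to 20.1 FPKM in KO Wnt5a against 7.01 to 9.18 in WT, and granulocyte genes to 4.77 to 8.11 against 0.467 to 3.04. Their part in the result was not tested.

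**Figure D3:**
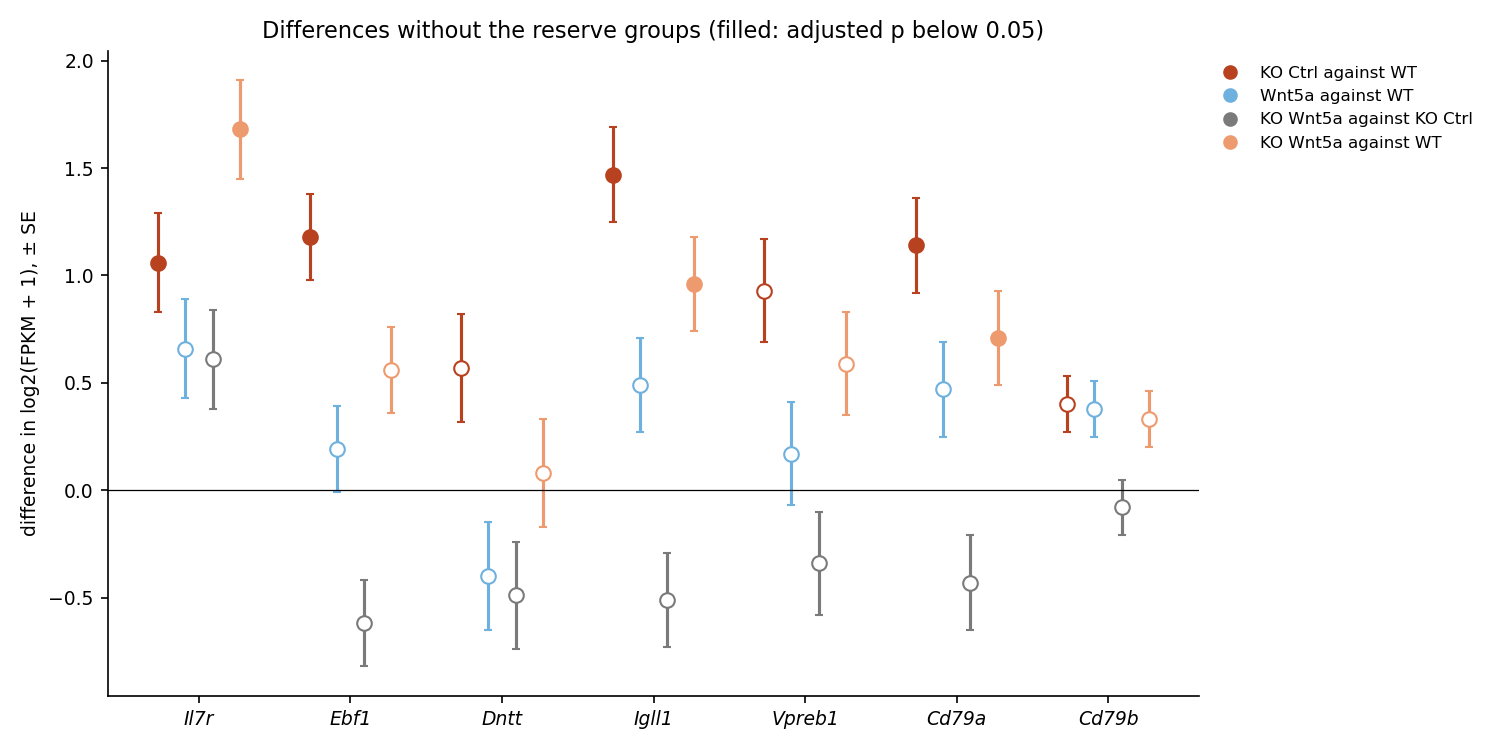
Differences in log2(FPKM + 1), ± SE, for the 7 members that pass the filter without reserve libraries, in 4 comparisons told apart by colour and filled where the adjusted p is below 0.05. Il7r, Igll1 and Cd79a are filled in KO Ctrl against WT and in KO Wnt5a against WT, Ebf1 in the first only, and none is filled in the Wnt5a comparisons within a genotype.

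WT Reserve against WT shows where these genes are abundant. The 7 members that passed the filter without the help of reserve libraries were higher by 7.28 (Dntt), 6.74 (Igll1), 6.31 (Vpreb1), 6.25 (Cd79a), 4.34 (Ebf1), 3.95 (Cd79b) and 3.82 (Il7r), and each was called, where 30.8% of all genes were called higher. Rag2 (3.96), Pax5 (1.24) and Rag1 (1.22) entered the test through the reserve libraries and so had to differ. Markers of several cell types were higher in the same libraries: mature B genes summed to 26.1 to 45.9 FPKM, T cell genes to 70.3 to 113.1 and erythroid genes to 371.6 to 746.7, against at most 3.23, 9.18 and 42.7 in WT. Their part was not tested.

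KO Reserve against WT Reserve asks the genotype question in the reserve cells. Cd79b fell by 0.60 (SE 0.13, adjusted p = 0.00115), Dntt fell by 0.72 (SE 0.25, adjusted p = 0.0259) and Cd79a fell by 0.63 (SE 0.22, adjusted p = 0.0297), while Rag1 rose by 0.37 (SE 0.13, adjusted p = 0.0263). Of all genes tested, 29.3% were called lower and 12% higher, so 3 of 10 lower is near the background. All genes had a median of -0.17, and of 0.03 after quantile normalization and 0.02 after median-ratio scaling. Igll1 (-0.39 ± 0.22, adjusted p = 0.17), Rag2 (-0.38 ± 0.25, adjusted p = 0.253) and Ebf1 (0.26 ± 0.20, adjusted p = 0.319) did not pass. Under median-ratio scaling Dntt (adjusted p = 0.117) and Cd79a (adjusted p = 0.155) lost their calls, which left 2 members higher and 1 lower. Under both other scalings Ebf1 was called higher, by 0.48 (adjusted p = 0.0341) and 0.50 (adjusted p = 0.0373), and under quantile normalization Igll1 was called lower, with a fall of 0.64 (adjusted p = 0.0254). Cd79b was called in each setting and each fit that left out a replicate, and without KO Reserve replicate 2 no other member was called. The call of Dntt ended also without WT Reserve replicate 1 or 3 or KO Reserve replicate 3, that of Cd79a without WT Reserve replicate 2 or 3 or KO Reserve replicate 3, and that of Rag1 without WT Reserve replicate 1 (adjusted p from 0.0546 to 0.121). Without KO Reserve replicate 1, Rag2 was called lower too (adjusted p = 0.00635). With 0.1 FPKM added, Rag1 lost its call (adjusted p = 0.427) and only Cd79b kept one. Rag1 was not called either in a fit of only the libraries of the groups compared (adjusted p = 0.138). Beside this, LT-HSC markers summed to 125.2 to 158.8 FPKM in WT Reserve and 69.5 to 83.6 in KO Reserve, with 6 of 7 called lower.

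In the pathway lists of this comparison, receptor signalling had 9 of 18 lower and 0 higher, led by Ptprc, which fell by 1.05 (adjusted p = 1.19e-06), and Plcg2, which fell by 1.17 (adjusted p = 2.3e-06). Early lymphoid surface genes had 10 of 14 lower and 1 higher, and V(D)J recombination and end joining had 4 of 14 lower and 1 higher. Among all genes tested, 29.3% were called lower and 12% higher, so 4 of 14 lower is near the background. Flt3 fell by 1.73 (adjusted p = 8.56e-06) and Cd27, a tumour necrosis factor receptor of early lymphoid cells, fell by 2.14 (adjusted p = 1.21e-07).

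Whether the knockout difference was the same in both sets of cells was tested as an interaction. It was called for 7 members, all with a lower knockout difference in reserve, where 22.9% of all genes were called lower: Igll1 (-1.86 ± 0.31), Cd79a (-1.76 ± 0.31), Il7r (-1.31 ± 0.32), Dntt (-1.29 ± 0.35), Cd79b (-1.01 ± 0.18), Vpreb1 (-1.01 ± 0.34) and Ebf1 (-0.92 ± 0.28). Adjusted p ran from 0.000359 for Igll1 to 0.034 for Vpreb1. All genes had a median of -0.22 in this test. Rag1 entered it through the reserve libraries and was not called in the main fit (0.37, adjusted p = 0.13). Rag1 was called higher under quantile normalization, median-ratio scaling, no filter on low values, and limma without trend and robust moderation. Vpreb1 lost its call without WT replicate 2, KO Ctrl replicate 3, any WT Reserve replicate or KO Reserve replicate 2 or 3 (adjusted p from 0.0508 to 0.0898), and Ebf1 without KO Ctrl replicate 3 or WT Reserve replicate 3 (0.0512 and 0.0526).

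Proportions between members also differed between the 12 libraries and the reserve libraries. Per 100 FPKM of Igll1, Vpreb1 held 42.7 in WT, 31.8 in Wnt5a, 29.7 in KO Ctrl, 33.1 in KO Wnt5a, 33.4 in WT Reserve and 41.5 in KO Reserve. Cd79a held 36.5, 37.1, 32.0, 32.3, 29.9 and 25.4 in the same order of groups. Over all groups, reserve included, the mean ratios of both genes to Igll1 varied far less than the mean level of Igll1. Within WT alone the Vpreb1 ratio ran from 20.1 to 54.2. Cd79b held 122, 116, 57.7, 77.2, 17.3 and 14.9, and Dntt held 6.25, 1.49, 4.64, 3.42, 21.4 and 16.7 per 100 FPKM of Igll1. Il7r held 8.28, 12.8, 9.35 and 24.5 in the 4 groups outside reserve, and 2.08 and 2.26 in reserve. The ratio of Rag2 to Rag1 was 12, 12.3 and 11.3 in the WT Reserve libraries and 10.4, 5.62 and 3.45 in KO Reserve, with no overlap.

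**Figure D4:**
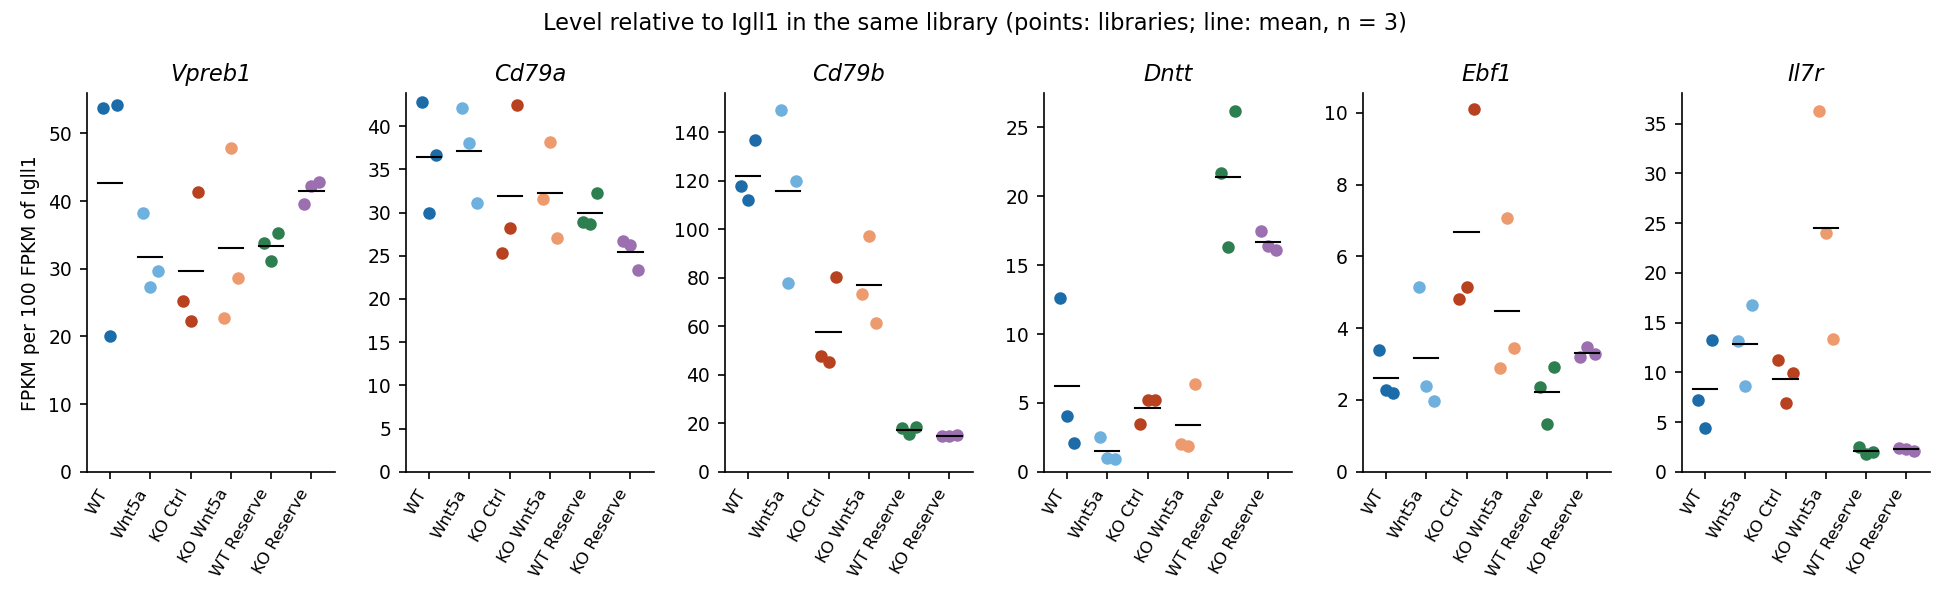
FPKM of 6 members per 100 FPKM of Igll1 in the same library, with points for libraries, lines for means and an axis from 0 in each panel. Group means lie between 29.7 and 42.7 for Vpreb1 and between 25.4 and 37.1 for Cd79a, and Cd79b stands at 122 per 100 in WT and 14.9 in KO Reserve.

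The likeness of other genes to the members was read as Pearson's r of log2(FPKM + 1) over the 12 libraries outside reserve, which share groups, so r describes these libraries only and carries no p. Igll1 was most like Zfp704 (0.939), Rasa4 (0.932) and Fam213b (0.928), and Ebf1 most like Irf4 (0.946), Usp22 (0.939) and Nanos3 (0.937). Genes most like Il7r included Elovl5 (0.94) and Dhx33 (0.934). Cd79a had Igll1 itself among its 3 nearest genes (0.917), beside Thsd1 (0.929) and Fnbp4 (0.917). Cd79b was most like Fbxo30 (0.948), Uvssa (0.935) and Zfp955a (0.92), and for Vpreb1, Dntt and Pax5 the nearest genes were Nap1l3 (0.886), Iqgap1 (0.882) and Dcun1d3 (0.879). For Rag1 and Rag2 such a likeness would rest on values near 0.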

How the data were processed

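RNA-seq libraries were made with a SMARTer low-input kit and Nextera chemistry, which keep no strand, per the labels' protocols. Tools listed in the submitters' processing notes, with no order or role, are CASAVA 1.8.2, Cufflinks and TopHat2 2.0.10, and the build is mm10. The deposited values are FPKM, 1 column per library, a unit taken from the tools named and from the values; their annotation release is not given in the sources used here. Of 44349 identifiers, 44022 were found in GENCODE M21 (GRCm38, equal to mm10), and the other 327 kept their deposited symbol. The 16 genes with missing values (33 cells) were left out. Depth was inferred from the steps of 2070 single-transcript coding genes of 1000 to 3000 bases, and fragment numbers cover counting error only.

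The analysis used log2(FPKM + 1) and 14285 genes that reached 1 FPKM in 3 or more libraries out of 18. limma 3.58.1 in R 4.3.3 was fitted with 1 mean per group, an intensity trend and robust moderation, with Benjamini-Hochberg adjustment at 0.05 within each of 9 contrasts, and was tested on simulated data. Summaries used Python 3.11.15, pandas 2.3.3, numpy 2.4.6 and matplotlib 3.10.9. Members and lists were chosen with earlier results of these data known. All 10 members are named; from each other list and contrast, up to 4 called genes with the smallest p were eligible, with the genes of the gate and the 3 genes most like each member. The alternatives were other scalings, pseudocounts, filters, fits and libraries; the fit of the 12 libraries was added after seeing the data. Cd37 in KO Ctrl against WT, and Jchain, Iglc1, Vpreb2 and Vpreb3 among the closing observations, were chosen after their values were seen. A few genes that this rule names are not reported here.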

Additional observations from a re-analysis of the deposited data

Results flagged for a closer look

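A difference between groups in the effect of genotype drew attention to 7 members. The knockout difference in the reserve libraries was lower than the knockout difference between KO Ctrl and WT, by a test of the difference itself, with a value of -1.86 for Igll1 (adjusted p = 0.000359), -1.76 for Cd79a (adjusted p = 0.000463), -1.31 for Il7r (adjusted p = 0.00548), -1.29 for Dntt (adjusted p = 0.00952), -1.01 for Cd79b (adjusted p = 0.000515), -1.01 for Vpreb1 (adjusted p = 0.034) and -0.92 for Ebf1 (adjusted p = 0.0187). Of all genes tested, 22.9% were called lower in this test. Igll1 ranged from 24.7 to 33.9 FPKM in KO Ctrl against 8.28 to 11.2 in WT, and from 829.0 to 1009.6 in KO Reserve against 1062.3 to 1334.9 in WT Reserve. Median-ratio scaling ended the calls of Ebf1 (adjusted p = 0.0835) and Vpreb1 (adjusted p = 0.14), quantile normalization that of Ebf1 (adjusted p = 0.0714), a pseudocount of 0.1 that of Dntt (adjusted p = 0.0513), and fitting with no filter on low values that of Vpreb1 (adjusted p = 0.0923). Reserve and other libraries also differ in the word derarefl and in granulocyte, erythroid and T cell genes, and the part of these in the difference was not tested.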

How the results depend on the processing

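The number of members called stayed within 1.5 times its value in every setting that kept all libraries of the groups compared, with 2 exceptions among the 9 comparisons. For KO Wnt5a against Wnt5a it was 1 and became 0 with no filter on low values and 0 with only the libraries of the groups compared. For KO Reserve against WT Reserve it was 4 and became 1 with a pseudocount of 0.1 and 2 with no filter. Leaving out each replicate in turn gave 3 to 4 calls for KO Ctrl against WT, 0 to 0 for Wnt5a against WT, 0 to 0 for KO Wnt5a against KO Ctrl, 0 to 2 for KO Wnt5a against Wnt5a, 1 to 3 for KO Wnt5a against WT, 0 to 0 for the Wnt5a by genotype test, 1 to 5 for KO Reserve against WT Reserve, 10 to 10 for WT Reserve against WT and 5 to 7 for the genotype by reserve test. Where a group was left with 2 libraries it shared the spread of the others. The replicate block gave 4, 0, 0, 1, 3, 0, 4, 10 and 6 calls in these same comparisons, and the block's loss was Vpreb1 (adjusted p = 0.0523). Deviations of same-numbered libraries had correlations of -0.092 to 0.079, and those of differently numbered libraries -0.139 to 0.093. These correlations gave no sign of pairing, but over all genes they cannot exclude a shared animal or day. Of 1086 gene values under other settings, 1003 kept direction and side, 55 lost their call, 8 gained one and 20 changed sign, none of the last called. These values include Rag1, Rag2 and Pax5 only in WT Reserve against WT and KO Reserve against WT Reserve. The gains of Rag1 in the genotype by reserve test are therefore not counted. When a replicate was left out, values that changed sign ranged from -0.13 to 0.39 for Vpreb1 in Wnt5a against WT, from -0.17 to 0.05 for Cd79b in KO Wnt5a against KO Ctrl and from -0.14 to 0.04 in KO Wnt5a against Wnt5a, from -0.21 to 0.36 for Dntt in KO Wnt5a against WT and from -0.38 to 0.12 in the Wnt5a by genotype test, and from -0.33 to 0.19 for Il7r in that test. Sign also changed for Dntt in the Wnt5a by genotype test (0.00 with quantile normalization), for Il7r in KO Reserve against WT Reserve (0.02 with quantile normalization) and for Vpreb1 there (0.18 with median-ratio scaling). The causes were not tested. Depth limits Rag1 outside reserve, where it held at most about 1 fragment. Rag2 was low there too, from 0 to about 28 fragments, so not all of its values lie at that limit.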

Other observations

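Genes of antibody-secreting cells varied widely between libraries of the same reserve group. Jchain, the joining chain of secreted IgM and IgA, was 0.454, 1232 and 404.8 FPKM in the WT Reserve libraries and 5.941, 161.1 and 83.05 in KO Reserve. Igll1 was 1121, 1335 and 1062 FPKM in the same WT Reserve libraries, and Ebf1 26.6, 17.8 and 31.0. Iglc1, a light chain constant region whose transcript is 77.5% identical to that of Igll1 over 356 bases, was 0.54, 10654 and 87.2 FPKM there.

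Vpreb2, the near copy of Vpreb1, was 51.1 to 60.3 FPKM in WT Reserve and 43.1 to 47.8 in KO Reserve, without overlap, whereas Vpreb1 overlapped between these groups and Vpreb3 was 301.2 to 359.2 and 401.7 to 453.7. Neither Vpreb2 nor Vpreb3 was called by limma in KO Reserve against WT Reserve. Vpreb2 differed by -0.31 (adjusted p = 0.134) and Vpreb3 by 0.36 (adjusted p = 0.186). Cd34 RNA was 340.9 to 370.3 FPKM in WT, 64.1 to 70.8 in WT Reserve and 8.3 to 14.6 in KO Reserve. The T cell gene sum was 7.01 to 9.18 FPKM in WT and 11 to 14.8 in KO Ctrl, and Cd3e was at 0 in both groups.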
